A study of Mus musculus with 4 samples.

Results

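The genes described here are 35 members of glycolysis and of the hypoxia-inducible factor (HIF) pathway, out of 16657 genes measured. They were found by name: 63 of the 55681 probes on the array carried the name of a member, all of them under its current symbol, and 61 of these were well above background on at least 1 of the 4 arrays. The 35 genes fell into 21 of glycolysis, 5 of the HIF machinery itself and 9 other HIF targets. Total RNA came from adult cardiac mesenchymal progenitors (CMPs), Sca-1+ cells of C57BL/6 mouse heart. The study's methods give the atria as their source. The CMP control was untreated (day 0). The OSKM-CMPs carried Oct4, Sox2, Klf4 and c-Myc on Sendai virus and were taken at day 4, day 6 and day 8. The labels give the same growth conditions for every sample, serum and basic fibroblast growth factor on collagen I. In the methods, cells to be infected were seeded on Geltrex and then moved to a reprogramming medium without leukemia inhibitory factor, and whether the control shared either is not stated. There was 1 Agilent single-colour array per condition, so no p-value is given, and virus, medium, coating and time in culture cannot be told apart.

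Glycolysis splits glucose into pyruvate in the cytosol, and lactate dehydrogenase turns pyruvate into lactate when it is not burned in mitochondria. HIF is a pair of proteins, an alpha subunit (Hif1a or Epas1) and the beta subunit Arnt. When oxygen is plentiful, prolyl hydroxylases of the Egln family mark the alpha subunit for destruction. When oxygen is short, the pair binds the core motif ACGTG or GCGTG in DNA and raises glucose transporters, most glycolytic enzymes, Ldha, Pdk1 and its own hydroxylase Egln3. c-Myc is known to act on many of the same glycolytic genes, and mature adipocytes take up glucose through the insulin-responsive transporter Slc2a4.

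The promoter windows of 6 genes are printed because they belong to genes far from the control, to pairs of isozymes that moved apart or, for Pgk1, to a well-known HIF target among the lower glycolytic enzymes. Each runs 5′ to 3′ on the gene's strand, from 250 bases before the annotated start to 50 bases from it on (RefSeq, GRCm38.p6). Capitals mark the HIF core, ACGTG or GCGTG, on the strand shown, its reverse form CACGT or CACGC, and the E-box CACGTG, which reads the same on both strands and is counted as 2 core matches.
Slc16a3, chr11:120948817-120949116, plus strand: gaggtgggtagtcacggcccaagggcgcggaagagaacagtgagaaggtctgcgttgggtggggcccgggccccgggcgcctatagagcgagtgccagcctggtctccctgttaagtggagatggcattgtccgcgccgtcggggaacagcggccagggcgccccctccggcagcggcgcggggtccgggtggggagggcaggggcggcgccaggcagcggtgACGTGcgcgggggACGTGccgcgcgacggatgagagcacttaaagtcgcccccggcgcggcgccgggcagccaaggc
Ldha, chr7:46845554-46845853, plus strand: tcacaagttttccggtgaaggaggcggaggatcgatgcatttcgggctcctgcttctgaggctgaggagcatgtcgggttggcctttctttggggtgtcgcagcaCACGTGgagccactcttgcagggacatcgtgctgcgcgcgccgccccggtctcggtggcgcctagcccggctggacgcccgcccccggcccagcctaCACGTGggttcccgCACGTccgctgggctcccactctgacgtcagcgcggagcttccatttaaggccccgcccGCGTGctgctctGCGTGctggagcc
Ldhb, chr6:142507908-142508207, minus strand: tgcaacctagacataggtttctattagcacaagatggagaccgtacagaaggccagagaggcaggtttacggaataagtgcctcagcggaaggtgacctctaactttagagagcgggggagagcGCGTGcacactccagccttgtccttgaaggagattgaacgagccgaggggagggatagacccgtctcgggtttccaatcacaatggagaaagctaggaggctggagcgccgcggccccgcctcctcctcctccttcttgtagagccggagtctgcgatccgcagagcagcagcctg
Pgk1, chrX:106186850-106187149, plus strand: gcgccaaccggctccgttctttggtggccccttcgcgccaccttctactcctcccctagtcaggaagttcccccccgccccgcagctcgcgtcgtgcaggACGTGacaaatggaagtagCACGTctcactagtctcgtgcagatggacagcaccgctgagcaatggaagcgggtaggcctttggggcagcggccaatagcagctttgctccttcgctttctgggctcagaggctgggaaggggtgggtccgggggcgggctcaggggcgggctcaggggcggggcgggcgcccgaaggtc
Ankrd37, chr8:45999801-46000100, minus strand: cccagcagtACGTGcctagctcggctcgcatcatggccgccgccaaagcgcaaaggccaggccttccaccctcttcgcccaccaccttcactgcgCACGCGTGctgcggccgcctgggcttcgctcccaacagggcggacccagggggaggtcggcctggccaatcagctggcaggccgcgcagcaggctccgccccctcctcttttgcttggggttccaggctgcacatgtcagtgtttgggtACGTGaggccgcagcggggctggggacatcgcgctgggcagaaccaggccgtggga
Eno2, chr6:124769624-124769923, minus strand: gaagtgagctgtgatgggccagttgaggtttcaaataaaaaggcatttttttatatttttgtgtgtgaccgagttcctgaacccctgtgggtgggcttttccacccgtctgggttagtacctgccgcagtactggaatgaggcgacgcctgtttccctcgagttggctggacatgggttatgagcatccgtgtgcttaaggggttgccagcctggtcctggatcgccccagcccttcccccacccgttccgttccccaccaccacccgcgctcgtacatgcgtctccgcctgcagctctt
The Slc16a3 window held ACGTG at positions -27 and -14, counted to the first base of the match with the start as 0, and the Pgk1 window held it at -150 and, on the other strand, at -131. In the Ldha window 7 core matches were found, with CACGTG at -145 and -48, against 1 GCGTG in the Ldhb window. None was found in the Eno2 window. A match is a run of letters and was not tested as a binding site.

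Levels are log2 signals relative to the 75th percentile of the same array, and a change is a difference of such levels between 2 arrays. They rank arrays for 1 probe and not one gene above another. The error given (±) is 1 SD from the scanner software's error model and covers the array alone. Errors of a probe's spots and of a gene's probes were combined as if independent. The ± of a gene therefore shrinks with its number of probes and leaves out the spread between them. A gene was called higher or lower where it differed by at least 2-fold, that is by 1 on the log2 scale.

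Among the 35 genes, more were lower than higher on each day of OSKM. At day 4, 10 were at least 2-fold lower and 5 higher, where 9.57% of all genes were lower and 12.1% higher. At day 6, 13 were lower and 4 higher, beside 11.5% and 13.0% of all genes. At day 8, 14 were lower and 3 higher, beside 11.6% and 14.4%. The 9 members Slc2a1, Slc16a3, Pgk1, Hif1a, Epas1, Egln1, Ankrd37, Adm and P4ha1, were past 2-fold lower on all 3 days, and Eno2, Ldhb and Ndrg1 were past 2-fold higher on all 3. Hif1a is counted through a probe that was above background on the control array alone; with RefSeq probes only, 9, 12 and 13 members were lower on the 3 days and Hif1a was not among them. The sign was kept on all 3 days by 24 genes below the control and 8 above it, and 15 genes were past 2-fold on no day. The 3 days share 1 control array, and the shares of all genes for these counts over 3 days are not given here. Day by day, 27, 26 and 24 of the 35 were below the control, beside 50.72%, 52.15% and 51.72% of all genes. The median change of the 35 was -0.63 at day 4, -0.77 at day 6 and -0.77 at day 8, while the median of all genes was -0.01, -0.04 and -0.03.

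**Figure D1:**
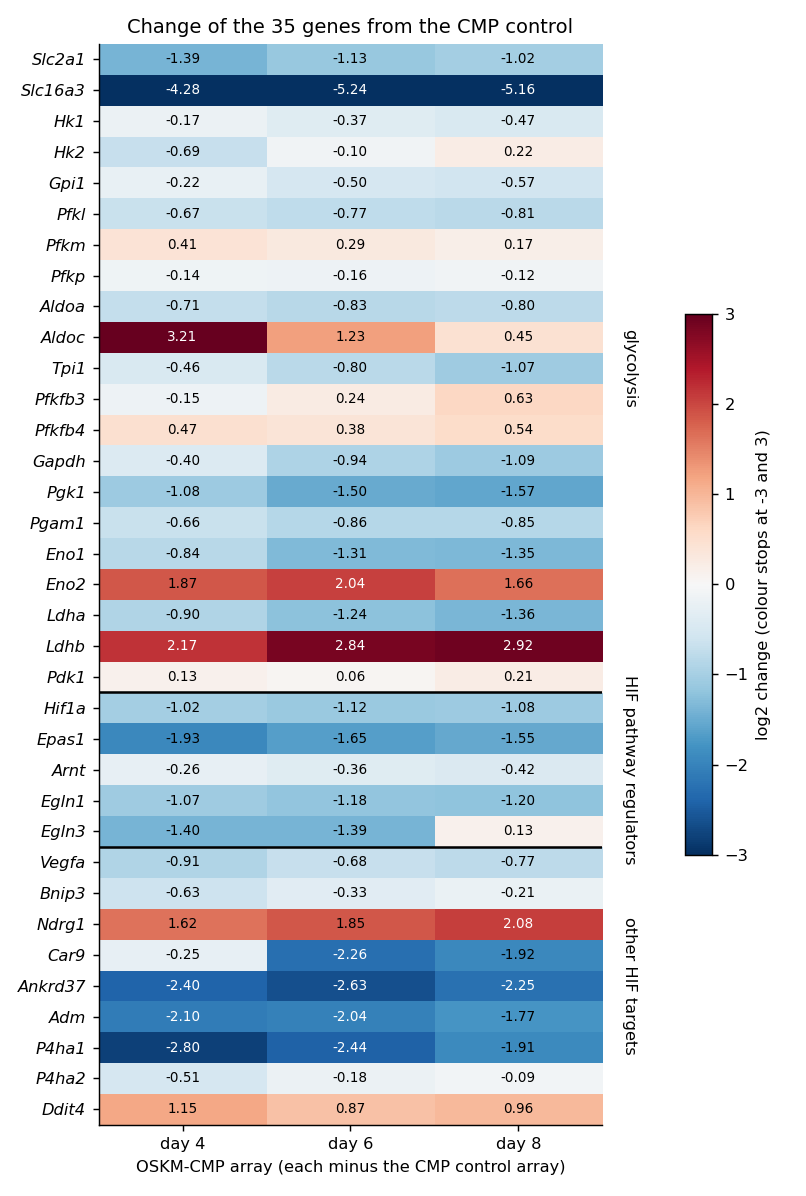
Log2 change of each of the 35 genes (rows, by role) from the CMP control array, with a column for each OSKM-CMP day and 1 array per condition, with its value printed in each cell and the colour stopping at -3 and 3. Slc16a3 was the lowest on every day, from -4.28 to -5.24, and Aldoc at day 4 was the highest, at 3.21.

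**Figure D2:**
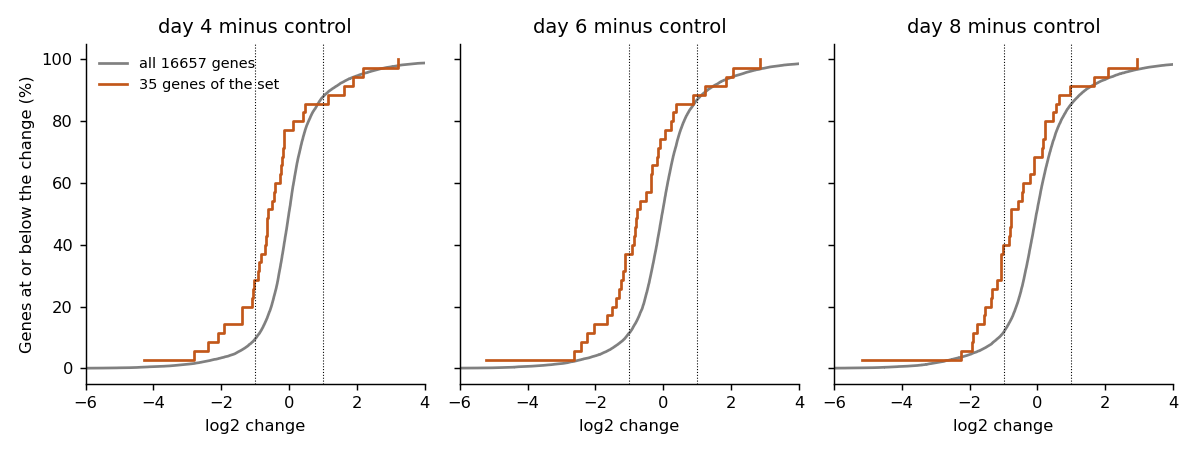
Percentage of genes at or below a given log2 change from the CMP control (x axis) for all 16657 genes in grey and the 35 genes in orange, 1 panel per day, with dotted lines at 2-fold. The orange curve lies left of the grey one over most of its course, with a median of -0.77 at day 8 against -0.03 for all genes.

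The transporters at the 2 ends of the pathway were both lower in OSKM-CMPs. Slc16a3 (MCT4), which exports lactate from glycolytic cells, stood at 3.77 in the CMP control and at -0.51, -1.46 and -1.39 on the OSKM arrays of day 4, day 6 and day 8. This was the largest change of any member, 35.8-fold lower at day 8 (-5.16), and most of it was present at day 4 (-4.28). Both of its probes gave it, -5.18 ± 0.21 and -5.15 ± 0.20 at day 8, but they share 53 bases (chr11:120820023-120820082 and chr11:120820030-120820089, mm9) and so count as 1 measurement. Slc2a1 (GLUT1), the basal glucose transporter, went from 3.92 to 2.53, 2.78 and 2.89. It was 2.61-fold lower at day 4 and 2.03-fold lower at day 8 (-1.02 ± 0.20), only just past the 2-fold line and not past it with quantile normalization (-0.86).

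In the upper, sugar-splitting steps most enzymes moved little, with a median of -0.22 at day 4 and -0.47 at day 8 over 9 genes. Hexokinase, which traps glucose in the cell, was represented by Hk1, with changes of -0.17, -0.37 and -0.47, and by Hk2, which went from 0.54 to -0.15, 0.45 and 0.76. At day 8 the Hk1 probes on the gene's chromosome were at -0.62 and -0.71, and the third, the brightest and placed elsewhere, was at 0.13, 0.05 and -0.07 on the 3 days. Hk2 was at -0.69 ± 0.20 against the control at day 4 and 0.91 higher at day 8 than at day 4. Gpi1, which converts glucose 6-phosphate to fructose 6-phosphate, was at -0.57 at day 8 on 3 overlapping probes. Of the phosphofructokinases, which carry the committed step, the liver form Pfkl was at -0.81 at day 8 and the platelet form Pfkp at -0.12, from probes at -0.56 and 0.33. The muscle form Pfkm was at 0.17 ± 0.06, a sign that turned (to -0.10) with the array median as the scale. Triose phosphate isomerase (Tpi1) came down step by step, from 5.35 to 4.89, 4.55 and 4.28, and was 2.09-fold lower at day 8 (-1.07 ± 0.14). Tpi1 and Gapdh were also within 2-fold with quantile normalization or with the brightest probe.

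Aldolase, which cleaves fructose 1,6-bisphosphate, held a peak at day 4. The main isozyme Aldoa was steady after a first step, at 8.82 in the control and 8.11, 7.99 and 8.03 later. Aldoc, the form known from brain, went from -2.19 to 1.03 at day 4, then to -0.96 and -1.73. It was 9.28-fold higher at day 4 (3.21 ± 0.21) and 1.37-fold higher at day 8 (0.45 ± 0.21). From day 4 to day 8 it came down by 6.78-fold.

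Pfkfb3 and Pfkfb4 make fructose 2,6-bisphosphate, the strongest activator of phosphofructokinase. Pfkfb3 was at -0.15 at day 4 and 0.63 ± 0.15 at day 8, and Pfkfb4 was between 0.38 and 0.54 on the 3 days, but at -0.02 at day 8 without the filter on dim probes. Neither reached 2-fold.

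In the lower, energy-yielding steps 4 of the 5 enzymes were below the control on each day, beside 50.72%, 52.15% and 51.72% of all genes. At least 2-fold lower were 1, 2 and 3 of the 5, beside 9.57%, 11.5% and 11.6%, and 1 was higher each day, beside 12.1%, 13.0% and 14.4%. Their median was -0.66 at day 4, -0.94 at day 6 and -1.09 at day 8. From day 6 to day 8 Pgk1, Pgam1 and Eno1 hardly moved (-0.07, 0.01 and -0.04). Gapdh went from 7.66 to 7.25, 6.72 and 6.57, a change of -0.40 ± 0.07 at day 4 and -1.09 ± 0.07 at day 8. All 8 Gapdh probes were lower at day 8, between -1.36 and -0.76, including 3 that the array file places on other chromosomes than the gene's. Gapdh was the transcript to which the study scaled its qRT-PCR. On these arrays it was 2.12-fold lower at day 8 than in the CMP control. Pgk1, the first ATP-producing enzyme, stood at 7.10, 6.01, 5.60 and 5.53 and was 2.96-fold lower at day 8. Pgam1 changed by -0.66, -0.86 and -0.85. Eno1, the general enolase, went from 8.21 to 7.38, 6.90 and 6.86 and was 2.55-fold lower at day 8 (-1.35 ± 0.20). Its neuronal counterpart Eno2 moved the other way, from -0.55 to 1.33, 1.49 and 1.11, and was 3.16-fold higher at day 8 (1.66 ± 0.20). The single probes of Pgk1 (chr3:57906830-57906894, mm9) and Eno1 (chr2:80678866-80678925, mm9) are also placed off the gene's own chromosome, so signal from a near-identical copy cannot be separated from theirs.

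At the branch between lactate and the mitochondrion the 2 lactate dehydrogenase subunits crossed over in direction. Ldha, the subunit that favours making lactate and a classic HIF target, was at 6.32 in the control and at 5.43, 5.08 and 4.96 on the 3 days. Its 3 probes, whose outer starts lie 7927 bases apart, were lower by similar amounts at day 8, from -1.48 to -1.16, and the mean was -1.36 ± 0.12. Ldhb, the subunit of oxidative tissues, was at 2.15, 4.32, 4.99 and 5.07, 7.58-fold higher at day 8 (2.92 ± 0.20) on 1 probe (chr6:142438770-142438829, mm9). No other member was as far above the control at day 6 or day 8. Pdk1, which shuts pyruvate out of the citric acid cycle by inhibiting pyruvate dehydrogenase, was at 0.13, 0.06 and 0.21, and its sign turned at day 4 and day 8 with the array median as the scale.

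**Figure D3:**
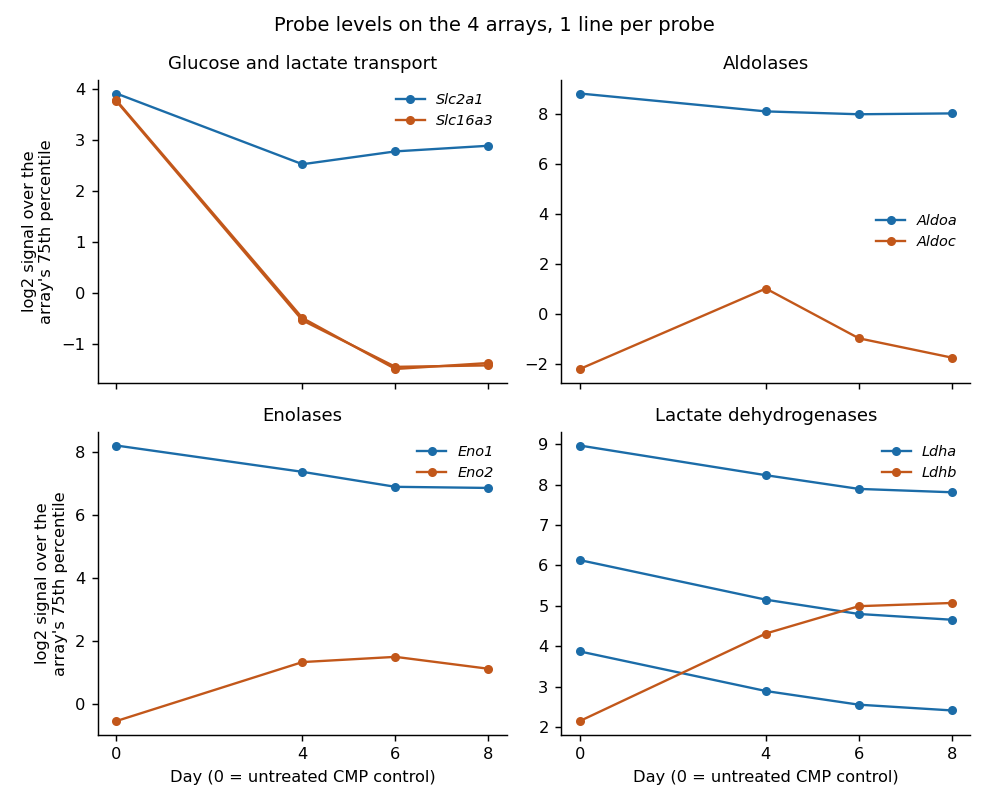
Log2 level relative to the array's 75th percentile (y axis) on the 4 arrays by day (x axis, 0 for the CMP control), 1 line per probe, for the transporters, aldolases, enolases and lactate dehydrogenases. Within each isozyme panel the blue gene (Aldoa, Eno1, Ldha) is lower on every OSKM array than in the control and the orange one (Aldoc, Eno2, Ldhb) is higher, while the heights of different probes are not comparable.

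Each of the 5 genes of the HIF machinery was below the control at day 4, beside 50.72% of all genes, with a median of -1.07. At least 2-fold lower were 4 of the 5, beside 9.57% of all genes. Hif1a was among these only through its dim probe, and its other probe was at -0.48 at day 4. Arnt, at -0.26, was at 0.039 that day without the filter on dim probes. The day 8 median of -1.08 is the value of Hif1a itself and was -0.49 without its dim probe, -0.46 with a floor on dim values, -0.42 with the median of probes and -0.31 with normexp and quantile normalization. For the alpha subunits the value depended on the probe. Hif1a had a mean change of -1.08 ± 0.47 at day 8. The probe on its RefSeq transcript (chr12:75047269-75047329, mm9) went from 2.00 to 1.52, 1.61 and 1.51, a change of -0.49 ± 0.20. The other probe (chr12:75033965-75034024, mm9), on a transcript without a RefSeq accession, was not well above background in OSKM-CMPs. Its control level was 1.35-fold above the lowest level well above background on the day 8 array, which is no firm bound. Without this probe Hif1a was not past 2-fold on any day.

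Epas1 (HIF-2 alpha), abundant in endothelium and fat, was at 3.74, 1.81, 2.09 and 2.20, and 2.92-fold lower at day 8 (-1.55 ± 0.12), a call that was lost (-0.25) with the median of probe levels, which picks the middle probe by brightness. Of its 3 probes, 2 were much lower at day 8, at -2.52 and -1.87, and 1 was nearly level, at -0.25. The level probe (chr17:87230678-87230737, mm9) starts 91 bases from the probe with the largest change (chr17:87230587-87230646, mm9), and all 3 carry the same RefSeq accession. The exons they lie in were not looked up, since no mm9 annotation was used here. Arnt was at -0.26, -0.36 and -0.42 on the 3 days, from probes at -0.82 and -0.02 at day 8.

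The hydroxylases that switch HIF off parted at day 8. Egln1 (PHD2), the main oxygen sensor, was at -0.63, -1.70, -1.81 and -1.82, and 2.29-fold lower at day 8 (-1.20 ± 0.21), but within 2-fold with normexp and quantile normalization. Egln3 (PHD3), itself a HIF target, was at -1.85, -3.26, -3.25 and -1.72. It was 2.64-fold lower at day 4 and back near the control at day 8 (0.13 ± 0.15), on probes at 0.08 and 0.18. That last sign turned under both quantile settings and with the array median (-0.02 to -0.14). It was the only member more than 2-fold higher at day 8 than at day 4.

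**Figure D4:**
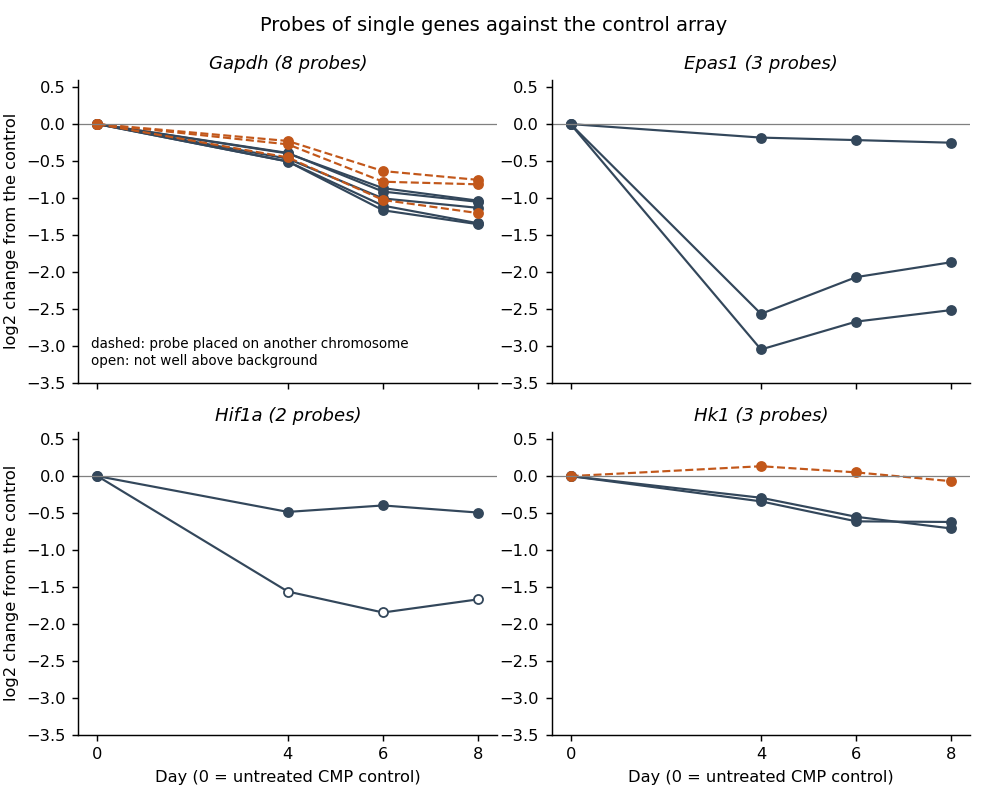
Log2 change from the CMP control (y axis) by day (x axis) for every kept probe of Gapdh, Epas1, Hif1a and Hk1, with dashed orange lines for probes placed on another chromosome and open circles for values not well above background. The 8 Gapdh probes lie together, between -1.36 and -0.76 at day 8, while the 3 Epas1 probes range from -2.52 to -0.25.

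The other HIF targets had a median change of -0.63 at day 4 and -0.77 at day 8. At day 8, 4 were at least 2-fold lower, 1 was higher and 4 were in between, beside 11.6% and 14.4% of all genes. P4ha1, a collagen prolyl hydroxylase subunit, was at 1.91, -0.89, -0.53 and 0.00, which is 6.97-fold lower at day 4 and 3.76-fold lower at day 8. Its paralog P4ha2 was at -0.51 at day 4 and -0.09 at day 8. Ankrd37, among the most HIF-dependent genes known, was at 0.61, -1.79, -2.02 and -1.63, and 4.75-fold lower at day 8 (-2.25 ± 0.21). Adrenomedullin (Adm), a vasodilator peptide, went from 4.99 to 2.88, 2.95 and 3.21, 3.42-fold lower at day 8. In all 3 the day 4 array already lay as far below the control as the day 8 array or farther, unlike the lower glycolytic enzymes that came down.

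Car9, the carbonic anhydrase used as a hypoxia marker, was dim throughout: -3.49 in the control, -3.74 at day 4, and not well above background at day 6 and day 8. Its control level was 3.12-fold and 3.54-fold above the lowest level well above background on those arrays, which is no firm bound. With normexp and quantile normalization Car9 was within 2-fold at day 8. Vegfa, the angiogenic growth factor, was at -0.91, -0.68 and -0.77, and the mitophagy receptor Bnip3 at -0.63, -0.33 and -0.21. At day 8 the dim Bnip3 probe was at -0.61 and the other 2 at -0.02 and 0.01. The other 2 genes were above the control on every day. Ndrg1, a stress and differentiation gene, climbed from 1.52 to 3.15, 3.37 and 3.60 and was 4.23-fold higher at day 8 (2.08 ± 0.20). Ddit4 (REDD1), an inhibitor of mTORC1, was at 5.41, 6.56, 6.28 and 6.37, 2.22-fold higher at day 4 and 1.95-fold at day 8.

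The comparison of day 8 with day 4 leaves the CMP control out. From day 4 to day 6, 2 members were at least 2-fold lower, Aldoc and Car9, and 0 higher, beside 2.64% and 2.83% of all genes, and from day 6 to day 8 only Egln3 was higher and 0 were lower, beside 2.44% and 1.01%. Between day 4 and day 8, only 1 member was at least 2-fold higher, Egln3, and 2 were lower, Aldoc and Car9, where 4.93% of all genes were higher and 4.1% lower. The roles differed in sign: the median was -0.21 over the 21 glycolysis genes and 0.33 over the 9 other HIF targets, 7 of which were higher at day 8 than at day 4. Of all genes 47.31% were higher at day 8 than at day 4, with a median of -0.03. P4ha1 gained 0.89 ± 0.15, Bnip3 0.42 ± 0.12 and P4ha2 0.42 ± 0.20, while the 5 enzymes of the lower pathway fell by 0.19 (Pgam1) to 0.68 (Gapdh); Pgam1 was level (0.01) with quantile normalization. Most of these steps are smaller than 2-fold and rest on 1 array each.

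Genes of the same pathways outside the 35 were followed from lists. Of 22 other glycolysis and transport genes measured, 7 were at least 2-fold higher and 3 lower at day 8, with a median of 0.43, where 14.4% of all genes were higher and 11.6% lower. The same shares stand behind each list that follows. The insulin-responsive transporter Slc2a4 (GLUT4) was at -3.60, -3.37, -1.01 and 1.12, a change of 4.72 ± 0.07 at day 8, the opposite of Slc2a1. The lactate and pyruvate carrier Slc16a7 (MCT2) was 2.34 ± 0.50 higher, the opposite of Slc16a3, and Pfkfb2 was 1.04 higher. Pyruvate kinase (Pkm), the last step of the pathway, stood at 6.90, 6.04, 5.52 and 5.41 and was lower by an amount close to that of Pgk1, Eno1 and Ldha (-1.49 ± 0.20). Pgam2 and Slc2a10 were at -1.26 and -1.22.

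Of 12 genes of pyruvate dehydrogenase and the mitochondrial pyruvate carrier, 3 were higher and none lower at day 8, with a median of 0.60. Pdk4, the kinase that spares glucose when fat is burned, was 2.55 higher on day 4 and stayed there (2.53 at day 6 and 2.55 ± 0.20 at day 8), in contrast to Pdk1. The enzyme subunit Pdhb and the phosphatase Pdp2 were higher by 1.01 and 1.06.

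Of 16 other HIF regulators only Hif3a was past 2-fold at day 8 (1.08), and it was not well above background in the control. The list's median was 0.00. Of 43 further HIF targets measured, 7 were higher and 8 lower, beside 14.4% and 11.6% of all genes, and their median of 0.01 was close to that of all genes (-0.03). Stc1 was 3.45 ± 0.22 higher, Igfbp3 3.06 ± 0.76 and Angptl4, also a target of the fat regulator Pparg, 2.07 ± 0.20. Igfbp3 was at -5.51 in the control, a dim value that limits how well the size of its change is known. The endothelin precursor Edn1 was at -3.58 ± 0.07 and the Vegfa receptor Flt1 at -2.69 ± 0.14.

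A promoter window was at hand for 33 of the 35 genes, all but Epas1 and Ndrg1. In the first window listed for a gene, 27 of the 33 (81.8%) held a HIF core on either strand, where 57.7% of the 13005 measured genes with a window did. The form ACGTG was in 57.6% against 23.8%, GCGTG in 57.6% against 46.4%, and CACGTG in 12.1% against 9.34%, that is in Pfkm, Ldha, Hif1a and Bnip3. The members' windows were slightly richer in G and C, with a median of 62.3% against 59.3%. By direction at day 8, a core was found in 12 of 13 genes at least 2-fold lower, in 1 of 2 at least 2-fold higher and in 14 of 18 in between. The exception among the lower genes was Tpi1. Many of the genes were picked as known HIF targets, and no test was made of these shares.

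**Figure D5:**
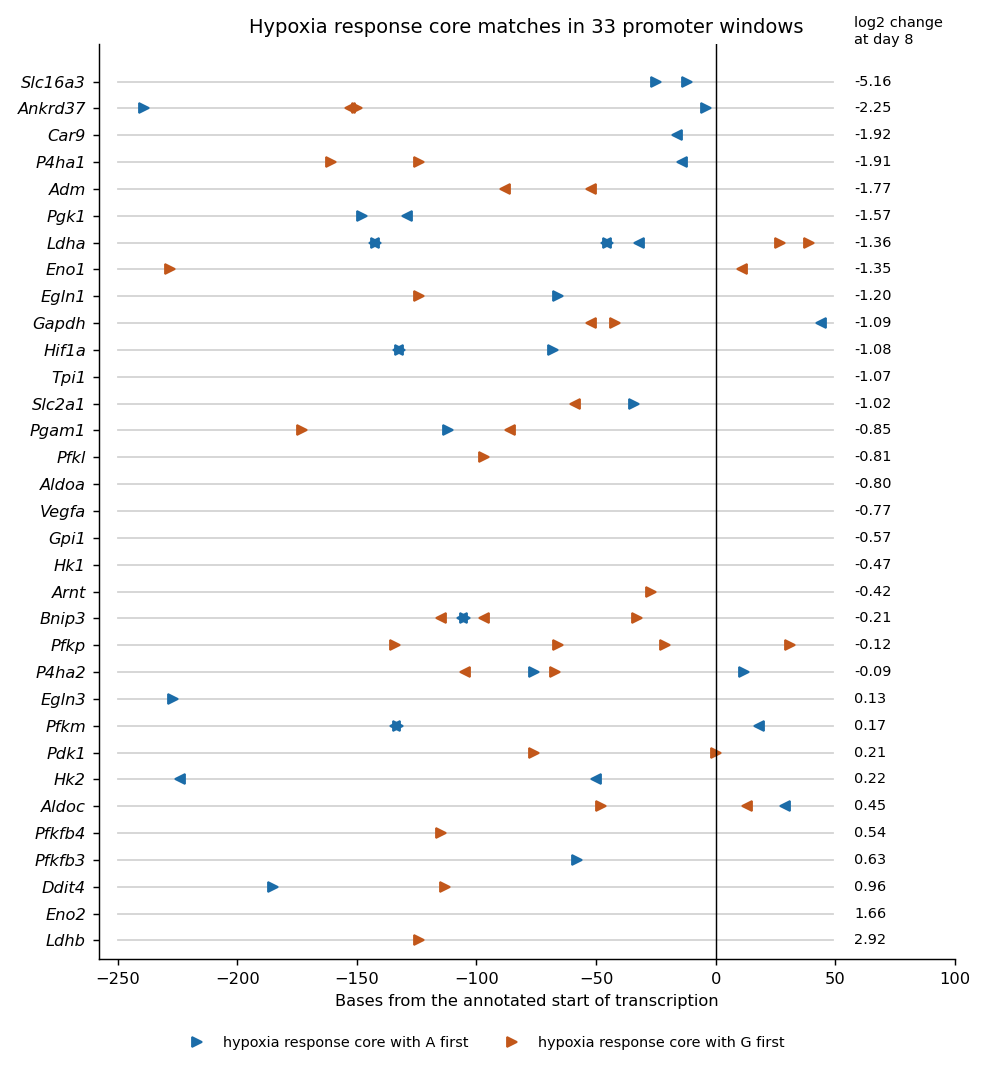
Matches to the HIF core in the first promoter window of 33 genes, ordered by log2 change at day 8 (printed at right), against distance in bases from the annotated start, blue for ACGTG and orange for GCGTG, with triangles pointing right on the gene's strand and left on the other, and both at once for the E-box. Genes far apart in change, such as Slc16a3 (-5.16) and Ddit4 (0.96), both hold matches, and Eno2 (1.66) holds none.

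Marker genes of the cells were read beside these results. Of 12 markers of mesenchymal progenitors all were well above background on every array, with a summed level between 1616 and 1987 times the array's 75th percentile, and Ly6a, which encodes Sca-1, was 2.69 higher at day 8. Most of this list went the other way: 10 of the 12 were lower at day 8, 3 of them at least 2-fold (Tcf21 at -4.65, Thy1 at -1.78 and Eng at -1.19), and the median was -0.33. Of 10 adipocyte markers 5 were above background in the control and all 10 at day 8, and their summed level went from 5.11 to 47.3, 162 and 350. Of 10 proliferation markers 9 were measured, and their sum came down from 155 to 73.5, 56.4 and 45.5. Of 10 endothelial markers all were above background in the control and 7 later, with Cdh5, Tie1 and Emcn below it, and the sum went from 11.9 to 10.74, 5.50 and 3.85. At day 4, 5 of the 10 endothelial markers were at least 2-fold lower and 0 higher, beside 9.57% and 12.1% of all genes. The 5 include Cdh5, Tie1 and Emcn, whose day 4 values are limited by background. The list's median that day was -1.66, while Egfl7 went up from 2.26 to 3.22 and Ptprb down from 2.33 to -2.61. Leukocyte markers gave a sum between 2.39 and 2.57, with 7 to 9 of 10 above background, and erythroid markers one between 0.156 and 0.248, with 2 of 5 above it. The leukocyte sum hides moves both ways. At day 8, 2 of the 9 leukocyte markers measured were at least 2-fold higher and 2 lower, beside 14.4% and 11.6% of all genes. Cardiomyocyte markers gave a sum of 12.1 in the control and between 4.43 and 7.0 later, with 4 of 10 above background in the control, where Myh6 and Tnni3 were not, and 7 or 8 later. That sum follows Tnnt2, which went from 3.56 to 1.96 at day 8, while the other 7 of the 8 measured were higher at day 8 and the median was 1.04. Tcf21, Thy1, Eng, Egfl7, Ptprb and Tnnt2 were named after their values were seen. The part of these shifts in the values of Epas1, Adm, Edn1, Flt1 or any other gene was not tested. In bulk RNA fewer cells of a type and less RNA per cell cannot be told apart.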

How the data were processed

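RNA from the CMP control and from OSKM-CMPs at day 4, day 6 and day 8 was labelled with Cy3 (250 ng per the labels) and hybridised to Agilent SurePrint G3 Mouse GE arrays, 1 per condition, all read in 1 scan. The deposited scanner files give a background-subtracted, processed intensity per spot with its error; per the file headers they were made with Feature Extraction 10.7.3.1, while the submitters' processing notes name 9.5.3. The authors normalized the data in GeneSpring GX, and their table holds log2 values that equal the processed signal shifted by a constant per array. It was used here as an alternative only.

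Each array held 62976 spots, of which 3671 were controls and 87 to 106 were outliers, left out here. No spot was saturated, and 56.6% to 59.6% of probes were well above background. The log2 processed signals were averaged per probe, and the array's 75th percentile (a signal of 388.5 to 410.9) was subtracted. The 35540 probes that were well above background on any array were kept, named through the RefSeq table of GRCm38.p6 and averaged per gene. Positions of probes come from the scanner files (mm9). The 399 probes with at least 5 spots gave a technical SD of 0.09 (log2) for a difference between 2 arrays. For a dim probe the fold is taken against the lowest signal well above background on the dim array. It is a guide and not a firm bound.

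The members, lists and motifs were chosen with earlier results of these data known. All 35 members are described. From each pathway list are named up to 3 genes with the largest rise and 3 with the largest fall at day 8 among those past 2-fold, of 1 direction on all 3 days and above background in the control and at day 8; 1 gene that this rule would name is not reported here. Others, Hif3a among them, were chosen after their values were seen. The motif search used both strands, and the E-box counts as 2 core matches. Alternatives were the array median as scale, quantile normalization with and without normexp correction (offset 50), the GeneSpring values, no filter, a filter over all 4 arrays, a floor for dim probes, other ways to join probes, and folds of 1.5 and 3. After the data had been seen, probes on the gene's chromosome alone and probes with a RefSeq accession alone were added. The procedure was tested on simulated data. Python 3.11.15, numpy 2.4.6, pandas 2.3.3, R 4.3.3 and limma 3.58.1 were used.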

Additional observations from a re-analysis of the deposited data

How the results depend on the processing

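No paired analysis was possible because there was 1 array per condition, and for the same reason no replicate could be left out. Beyond the values below, 229 counts and medians and 1288 single-gene changes stayed within 1.5 times, or within the technical SD, of the reported value. Another 362 single-gene changes moved, none with a turned sign where the reported change was above the technical SD. Sign was not followed for smaller changes. These totals include the array-median scale taken relative to the shift of all genes, which returns the reported values by construction. They also include the GeneSpring values, which differ from those used here by a constant per array. With one array per condition, what depends on culture or RNA preparation cannot be seen; dim genes (Car9, the second Hif1a probe) are limited by signal over background. The causes were not tested.

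At day 4, day 6 and day 8, 10, 13 and 14 of the 35 genes were at least 2-fold lower, beside 9.57%, 11.5% and 11.6% of all genes. With normexp and quantile normalization 6, 8 and 8 were lower, beside 4.78%, 5.85% and 6.65% of all genes. In that setting 4 were higher at day 8 in place of 3, beside 6.42% of all genes in place of 14.4%. Of the changed genes of the whole array 49.1% were higher at day 8 there, in place of 55.26%. That setting took Slc2a1, Tpi1, Gapdh, Hif1a, Egln1 and Car9 out of the 14, and quantile normalization alone took Slc2a1, Tpi1 and Gapdh. With the array median 16.88% of all genes were lower at day 8 in place of 11.6%, and 40.05% of changed genes were higher. There 4 members (Pfkl, Aldoa, Pgam1, Vegfa) joined the lower ones. At 3-fold the counts were 5, 6 and 5, and at 1.5-fold 18 were lower at day 4 and 5 higher at day 8. From day 4 to day 8, the 1 higher and 2 lower became 5 and 5 at 1.5-fold, and 0 were higher at 3-fold. With normexp and quantile normalization 0 were higher and 1 lower, beside 1.67% and 1.21% of all genes. With probes above background on all 4 arrays 1 was lower, beside 2.76%. The shares of all genes past 1.5-fold and 3-fold are not given here.

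Medians stayed negative against the control in every setting. With the array median as the scale, which shifted all genes by -0.15, -0.17 and -0.30, they were -0.77, -0.90 and -1.04 for all members, -0.55, -0.63 and -0.84 for glycolysis, -1.22, -1.32 and -1.35 for HIF regulators and -0.77, -0.82 and -1.04 for other targets, and from day 4 to day 8 -0.20, -0.34, -0.18 and 0.21. Relative to that shift they equal the reported values by construction, since both scales differ by a constant per array, so this was no check. With normexp and quantile normalization they were -0.38, -0.49 and -0.31, then -0.31, -0.25 and -0.28, then -0.81, -0.82 and -0.31, then -0.41, -0.49 and -0.46. With quantile normalization alone all members gave -0.54, -0.59 and -0.53, glycolysis -0.31, -0.24 and -0.29, and the regulators -1.20 at day 8. The brightest probe gave -0.48, -0.63 and -0.56 for all members, -0.49 at day 8 and 0.21 from day 4 to day 8 for the regulators, and -0.51 and -0.87 (day 4, day 8) for other targets. The median of probes gave -0.46 for all members at day 4, -0.61 and -0.70 for glycolysis at day 6 and day 8, -0.42 for the regulators at day 8 and -0.51 for other targets at day 4. The floor gave -0.51 and -0.57 for all members (day 4, day 8) and -0.46 for the regulators at day 8. Probes above background on all 4 arrays gave -0.59 and -0.53 for all members (day 6, day 8), -0.49 for the regulators at day 8 and -0.77, -0.51 and -0.49 for other targets. Both settings added after seeing the data, probes on the gene's chromosome and RefSeq probes, gave -0.51 and -0.66 for all members at day 4 and day 8, and the latter -0.49 for the regulators at day 8.

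The sign of small changes turned for Egln3 at day 8 (-0.023 with normexp, -0.047 with quantile normalization, -0.14 with the array median), Pdk1 at day 4 and day 8 (-0.018 and -0.053), Hk2 at day 8 (-0.049) and Pfkm at day 8 (-0.096) with the array median, and from day 4 to day 8 for Pgam1 (0.0069) and Ddit4 (0.0045) with quantile normalization. Without a filter Arnt was at 0.039, 0.054 and, from day 4 to day 8, 0.015, and Pfkfb4 at -0.020 at day 8. With the brightest probe Hk1 was at 0.13 and 0.051 at day 4 and day 6, Bnip3 at 0.015 at day 8 and Arnt at 0.21 from day 4 to day 8. Epas1 was at -0.069 from day 4 to day 8 with the median of its probes. Reported changes smaller than the technical SD were not followed for sign.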

Other observations

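Other routes of glucose were read from lists in the same way. Of 18 glycogen genes measured, 4 were at least 2-fold higher and 2 lower at day 8 than in the CMP control, with a median of 0.11, beside 14.4% and 11.6% of all genes. Pygl, the liver form of glycogen phosphorylase, went from 2.40 to -0.16, -1.38 and -0.89, a change of -3.29 ± 0.20 at day 8. Pygm, the muscle form, went the other way, from -1.37 to -0.47, 0.17 and 0.42 (1.79 ± 0.21). The branching enzyme Gbe1 was 1.33 ± 0.20 higher, the phosphorylase kinase subunit Phkg1 1.98 ± 0.38, and Ugp2, which makes the UDP-glucose for glycogen, went from 2.99 to 1.99. Gys2, the liver glycogen synthase, was not well above background in the control and was at -3.27 at day 8.

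None of 11 pentose phosphate genes was at least 2-fold higher at day 8, and the 1 lower gene, Tktl1, was not well above background there. Their median was -0.04. Of 10 genes of gluconeogenesis and glyceroneogenesis 4 were higher (Pcx, Pck1, Fbp2 and Gpd1) and 0 lower, with a median of -0.01. Beside both lists, 14.4% of all genes were higher and 11.6% lower. Gpd1 had the largest change of its list, from -3.96 to 0.50, 5.57 and 6.38 (10.34 ± 0.24 at day 8). Pyruvate carboxylase (Pcx), which turns pyruvate into oxaloacetate, went from 2.36 to 3.01, 4.41 and 5.24, a change of 2.88 ± 0.20 at day 8. Pck1 and Fbp2 were not well above background in the control. These genes were compared over single arrays, as above, and no explanation was tested.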
